A study of Gorilla gorilla gorilla with 13 samples.

Results

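The genes described here drive cells into mitosis, out of it and through cytokinesis, the physical splitting of the daughter cells. They are 50 genes listed by symbol, and all 50 were found among the 18137 rows of a count table made on the human build hg38. All 50 also passed the filter on low counts and are among the 16804 genes tested. The rows were taken by symbol alone, with no threshold on a measured value.

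The libraries came from cerebral organoids, 3-dimensional brain-like tissue grown in culture, made from 1 gorilla induced pluripotent stem cell line, GC1. At week 8, give or take 3 days, flow cytometry separated their cells into 4 libraries of apical radial glia (aRG), 4 of basal radial glia (bRG), 3 of basal intermediate progenitors (bIP) and 2 of neurons positive for BCL11B (N). All groups share the line, the culture and the age, and no treatment or allele distinguishes them. Each library was made by Smart-seq2 from 10000 cells with 12 to 17 PCR cycles and without molecular identifiers. Because no label ties the libraries of a population to separate cultures, p-values here measure the spread between libraries, which may be technical. Apart from BCL11B, the antigens used for sorting are not stated in these sources.

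A cell enters mitosis when cyclin B and CDK1, released by CDC25 phosphatases, act with the Polo and Aurora kinases to condense chromosomes and build the spindle. It leaves mitosis when the anaphase-promoting complex, loaded with CDC20, marks securin and cyclin B for destruction, after which anillin, ECT2 and citron kinase organise the cleavage furrow. Much of this set is transcribed in a burst in late G2 under FOXM1 and MYBL2, so its transcripts mark cycling cells. In the developing cortex, radial glia are the dividing stem cells, intermediate progenitors divide a limited number of times, and neurons have left the cell cycle.

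Total counts per library ran from 5464721 to 12524938 in the hg38 table. One library stood apart and touches many results below. In bRG 3, the log2 deviation of a member from the mean of the other bRG libraries had a standard deviation of 1.55 over the 50 genes, against at most 0.72 in any other radial glia library. MALAT1, a nuclear RNA, took 21.3% of that library's counts in a second table made on the gorilla build gorGor6, and 6.35% to 10.8% in the other 12 libraries. Among the apical libraries, aRG 4 was the highest for 38 of the 50 members. Calls that were lost or gained without either library are named with the comparison they belong to.

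The sorted labels were compared with marker genes. Radial glia markers, a list of 10 genes, summed to 3147 to 4228 CPM in aRG and 2449 to 4381 in bRG, but only to 140 to 171 in the bIP libraries and 128 to 165 in the neurons. CPM here are counts divided by the TMM-adjusted library total, per library and not per gene length, so levels are not compared between genes. Markers of basal (outer) radial glia went partly against the bRG label. The list of 8 summed to 3491 to 5233 CPM in aRG and to 1863 to 3396 in bRG, without overlap. By mean CPM, the largest part of these sums was PTN, at 2496 in aRG and 1190 in bRG. HOPX, a defining gene of that list, was at 120, 222, 70.9 and 187 CPM in aRG and 56.1, 108, 41.3 and 57.7 in bRG, with overlap. TNC alone had a higher mean in bRG (91.0 CPM) than in aRG (86.7 CPM). None of the 8 was called in bRG against aRG with edgeR (median log2 fold change -0.69), 3 had an unadjusted p under 0.05, and DESeq2 called 1. The bIP libraries also went partly against their label. EOMES, the defining transcription factor of intermediate progenitors, was at 98.2, 127 and 31.0 CPM in bIP, below its 260 to 460 CPM in bRG. Neuron markers summed to 4442 to 4796 CPM in bIP and 6770 to 7054 in N, against 595 to 957 in the radial glia. RELN, made by Cajal-Retzius neurons, was at 1048 to 3050 CPM in bIP and at most 73.2 CPM in every other library.

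The summed level of the 50 genes was highest in aRG and lowest in N. It was 10608 ± 3334 CPM in aRG (SD, n = 4), 1973 ± 61.3 in bRG (n = 4), 483 ± 36.2 in bIP (n = 3) and 390 ± 8.77 in N (n = 2). The 4 apical libraries lay between 7880.5 and 14993 CPM and the 4 basal radial glia libraries between 1893 and 2041, so these ranges did not overlap. Population means ranked aRG, bRG, bIP, N in 41 members. In 6 members (CDK1, CDC25B, AURKB, DLGAP5, CKAP2, CEP55) N stood above bIP, in CCNA2 and RACGAP1 bIP stood above bRG, and in NUSAP1 bRG was the lowest. Every member had its highest mean in aRG. As these are bulk samples, fewer dividing cells and less of each transcript per dividing cell cannot be told apart.

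Compared with aRG, bRG had lower levels of nearly the whole set. In bRG, 45 of the 50 members fell and none rose (edgeR, Benjamini-Hochberg adjusted p under 0.05), where 1.23% of all genes tested were called lower. The median log2 fold change was -2.49 over the members and 0.04 over all genes. Of the 206 genes called lower in bRG, 45 were members, or 21.8%. The lowest apical library lay above the highest basal one for 47 members, a separation found in 4.00% of all genes. The retained level, the bRG mean as a share of the aRG mean, ran from 8.16% for DEPDC1 to 71.9% for CDC25A, with a median of 17.7%. Without bRG 3, 45 members were called, with INCENP and MYBL2 gained and CCNB2 and NUSAP1 lost. Without aRG 4, 38 were called, and those lost were ANLN (adjusted p = 0.0523), CKAP2 (0.0529), CDCA5 (0.0988), PRC1 (0.160), TPX2 (0.168), NUSAP1 (0.174) and CCNB2 (0.213). Without bRG 4, 37 were called. The CCNB2 call was also lost without aRG 1 and without each of the bRG libraries in turn.

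**Figure D1:**
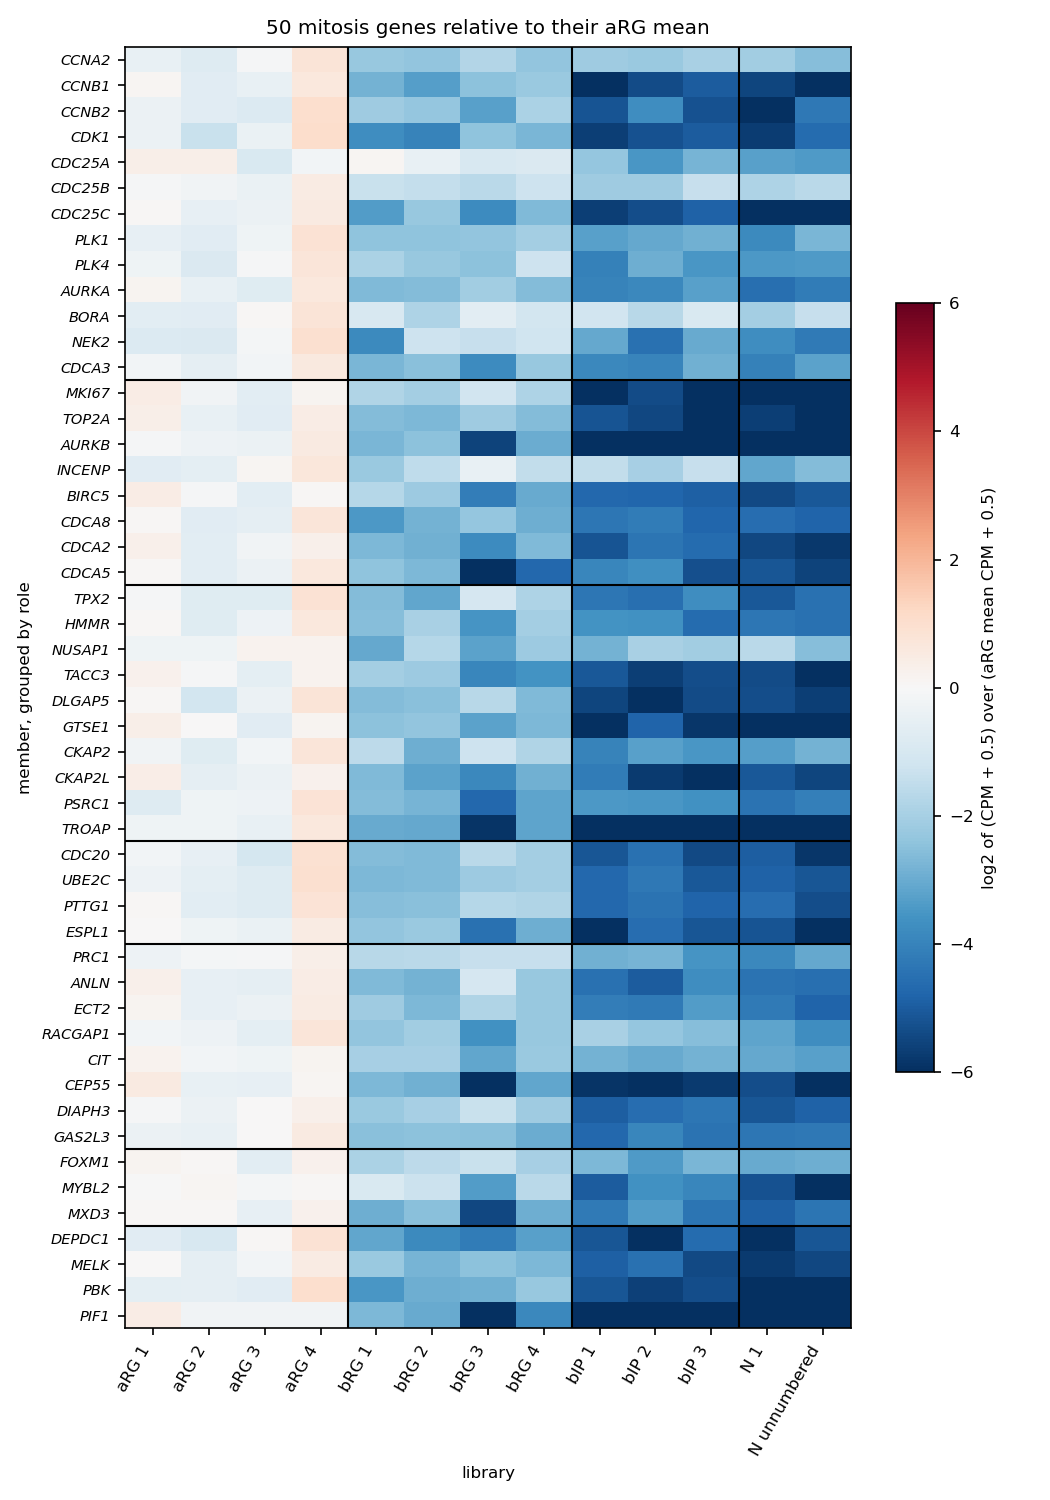
Heat map of the 50 members (rows, grouped by role) in the 13 libraries (columns), coloured by the log2 ratio of CPM + 0.5 to the aRG mean + 0.5, with ratios below -6 drawn in the darkest blue. The bRG columns are lighter than the bIP and N columns for most rows, and bRG 3 has dark cells at CDCA5, TROAP, CEP55 and PIF1.

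Of the 13 genes of mitotic entry, the kinases, cyclins and phosphatases around CDK1, 10 fell in bRG. CCNB1, the mitotic cyclin, was at 434, 254, 299 and 624 CPM in aRG and 56.7, 40.5, 72.5 and 86.4 in bRG. CDK1 itself was at 151, 76.2, 144 and 394 CPM in aRG and 13.8, 11.6, 35.5 and 28.3 in bRG. For both genes every bRG library lay below every aRG library. The log2 fold change was -2.65 for CCNB1 (SE 0.34, adjusted p = 0.000317) and -3.10 for CDK1 (SE 0.47, adjusted p = 0.00127).

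CCNA2, the cyclin of S phase and G2, stopped falling after the first step. It was at 139, 112, 184 and 335 CPM in aRG and 39.6, 37.3, 57.5 and 37.1 CPM in bRG, a log2 fold change of -2.17 (SE 0.31, adjusted p = 0.000617). It was then at 42.9, 41.0 and 49.6 CPM in bIP and 44.4 and 32.5 CPM in N. The bRG, bIP and N ranges overlapped, and bIP minus bRG was 0.05 (SE 0.32, adjusted p = 0.945). Cyclin B1 over the same step fell by 2.86 (SE 0.39, adjusted p = 5.39e-05), to 4.78, 9.22 and 12.1 CPM in bIP.

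The CDC25 phosphatases remove the inhibitory phosphates from cyclin-dependent kinases, and the values of its 3 members are given side by side. CDC25A, which also acts at the start of S phase, was at 25.3, 24.8, 10.1 and 17.4 CPM in aRG and 21.4, 14.3, 9.67 and 10.5 CPM in bRG. These ranges overlapped, and the log2 fold change of -0.48 did not pass the test (SE 0.40, adjusted p = 0.785). In bIP it was at 3.43, 1.27 and 2.43 CPM, below every bRG library, and the fall from bRG was 2.56 on the log2 scale (adjusted p = 0.00125). CDC25C, which acts at mitotic entry, was at 158, 108, 121 and 222 CPM in aRG and 14.4, 31.0, 10.8 and 24.1 CPM in bRG, with no overlap and a log2 fold change of -2.92 (SE 0.35, adjusted p = 0.000178). CDC25B was at 139 to 260 CPM in aRG and 58.6 to 77.1 in bRG, where it fell by 1.41 (adjusted p = 0.00379). CDC25B was at 50.5 ± 16.1 CPM in bIP (SD, n = 3) and 54.3 ± 6.13 in N (n = 2), and neither later step passed the test.

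The difference in log2 CPM between CDC25C and CDC25A was 2.99 ± 0.75 in aRG and 0.47 ± 0.83 in bRG (SD, n = 4 each). It was the largest of the shifts among the 6 pairs of related members compared, at -2.51 in bRG minus aRG. The two-sided exact permutation p was 0.0286, the smallest that 4 against 4 libraries allow, and 0.0857 after adjustment over the 6 pairs. No pair passed the adjusted threshold. The 6 pairs were chosen with earlier results of these data known, so their p-values only describe the shifts and are no independent test. With so few libraries, a pair could pass only if most of the 6 pairs reached that smallest p, so not passing decides little. CCNB1 minus CCNA2 shifted by -0.56 (exact p = 0.143, adjusted 0.286), and PLK1 minus PLK4 by -0.32 (exact p = 0.286, adjusted 0.343).

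Polo-like kinase PLK1, which triggers mitotic entry and later cytokinesis, was at 112, 98.9, 135 and 290 CPM in aRG and 29.2, 29.4, 30.8 and 38.3 in bRG. It fell by 2.32 (SE 0.34, adjusted p = 0.000791), without overlap. The centriole-duplicating kinase PLK4 was at 65.2 to 200 CPM in aRG and 21.6 to 51.4 in bRG, and fell by 1.90 (adjusted p = 0.0079). From bRG to bIP the log2 fold change of PLK1 was -0.79 (adjusted p = 0.155) and that of PLK4 was -1.57 (adjusted p = 0.0107, and 0.0687 without bIP 1). Aurora kinase A, AURKA, which acts at centrosomes, was at 69.5 to 179 CPM in aRG, 17.9, 18.4, 26.6 and 18.5 in bRG, 6.57 to 11.6 in bIP and 4.53 and 5.88 in N. It fell at the first step by 2.49 (adjusted p = 0.000313) and at the second by 1.25 (adjusted p = 0.0177). The second-step call of AURKA was lost without bIP 1 (adjusted p = 0.0947) and without bIP 2 (0.0859).

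BORA, the activator through which AURKA acts on PLK1, kept the highest share of its aRG mean of any member in bIP and in N. It was at 17.9, 17.6, 29.9 and 48.2 CPM in aRG, 14.5, 7.56, 18.4 and 13.04 in bRG, 12.7, 8.69 and 15.0 in bIP and 6.50 and 10.7 in N. The ranges of aRG and bRG overlapped, since bRG 3 lay above aRG 1 and aRG 2. Its log2 fold change was -1.09 in bRG (adjusted p = 0.322) and -1.23 in bIP against aRG (adjusted p = 0.055), and -1.72 in N against aRG (adjusted p = 0.0233). These BORA calls depended on the setting. The call in N was lost without aRG 4 (adjusted p = 0.0638), without N 1 (0.222), without the unnumbered neuron library (0.0717) and with the replicate block (0.0681). In bIP against aRG it passed without bRG 3 (adjusted p = 0.0312), with DESeq2 (0.0175) and in 4 other settings. NEK2, a centrosome-separating kinase, was at 26.5 to 95.4 CPM in aRG and at 2.91, 20.0, 17.9 and 20.7 CPM in bRG, without overlap, and its log2 fold change of -1.64 did not pass (adjusted p = 0.241). CDCA3, a mitotic-entry factor, was at 171 to 379 CPM in aRG and 17.7 to 51.6 in bRG and fell by 2.74 (adjusted p = 0.000369).

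**Figure D2:**
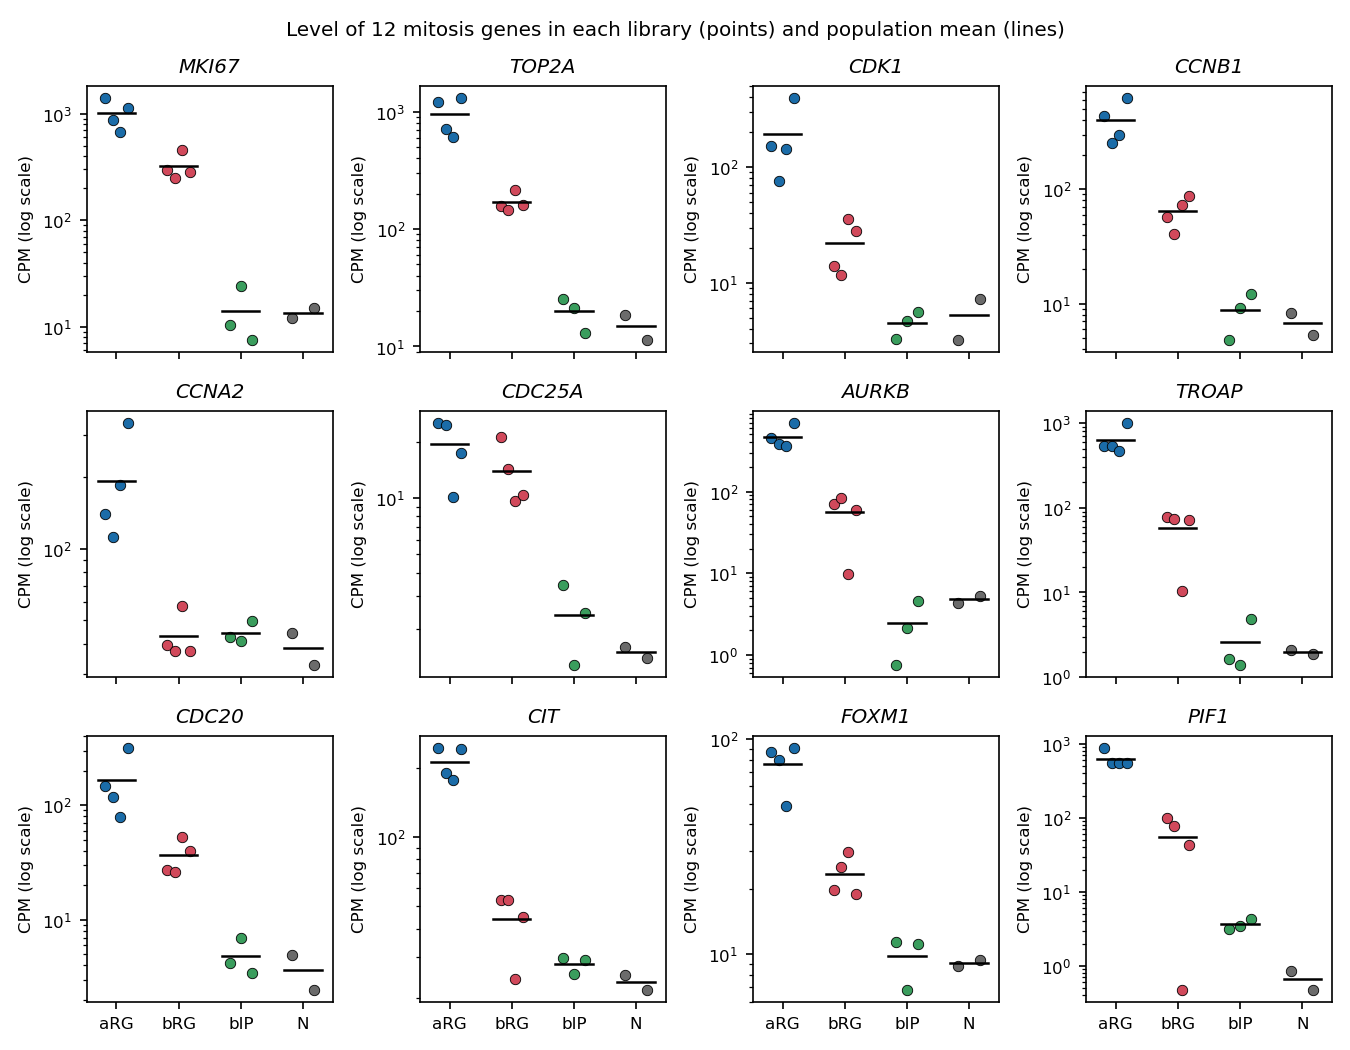
CPM (log axis) of 12 members in each library, one point per library and a line at the mean, for aRG, bRG, bIP and N. CCNA2 is level from bRG to N, CDC25A overlaps between aRG and bRG, and single bRG points lie far below the rest for AURKB, TROAP and PIF1.

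Genes of the mitotic chromosome and the chromosomal passenger complex fell in bRG in 7 of 8 cases. MKI67, which coats mitotic chromosomes and is the standard proliferation marker, was at 1404, 876, 668 and 1137 CPM in aRG and 295, 248, 460 and 281 CPM in bRG. No bRG library reached an aRG library, and the log2 fold change was -1.67 (SE 0.33, adjusted p = 0.011, and 0.0541 without bRG 4). In bIP it was at 10.3, 24.2 and 7.46 CPM, a further fall of 4.52 (SE 0.43, adjusted p = 1.51e-06), the largest point estimate of any member at that step. TOP2A, the topoisomerase that untangles replicated chromosomes, was at 602 to 1303 CPM in aRG, 146 to 217 in bRG, 13.1 to 25.5 in bIP and 11.3 and 18.6 in N. Its log2 fold changes at the first and second steps were -2.49 and -3.09.

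The passenger complex moves from centromeres to the midzone and is built on INCENP with the kinase AURKB, survivin (BIRC5) and borealin (CDCA8). AURKB was at 448, 386, 365 and 689 CPM in aRG and 70.6, 84.4, 9.67 and 59.0 CPM in bRG. The bRG 3 value was the low one, and the log2 fold change was -3.08 with it (SE 0.50, adjusted p = 0.00205) and -2.73 without it. AURKB then fell to 0.747, 2.12 and 4.58 CPM in bIP (log2 fold change from bRG -4.42). INCENP, the scaffold, was at 23.8, 25.8, 42.6 and 63.4 CPM in aRG and 7.86, 13.2, 28.2 and 13.8 in bRG, where bRG 3 lay above the lowest apical libraries. Its log2 fold change was -1.30 with all libraries (adjusted p = 0.198) and -1.74 without bRG 3 (adjusted p = 0.0231). BIRC5 and CDCA8 fell by 2.52 and 2.84 in bRG. Whether INCENP fell less than its partners was not tested.

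The difference between the Aurora kinases, AURKA minus AURKB in log2 CPM, was -2.09 ± 0.26 in aRG, -1.09 ± 1.70 in bRG, 1.91 ± 0.73 in bIP and 0.11 ± 0.05 in N (SD). The wide spread in bRG came from bRG 3, at 1.44, while the other bRG libraries lay between -2.19 and -1.67. The shift from aRG to bRG was 0.99 with that library (exact permutation p = 0.229, adjusted 0.343) and 0.15 without it. Among the remaining chromosome genes, the phosphatase anchor CDCA2 fell by 2.98 and CDCA5 (sororin, which protects cohesion) by 3.47, the latter with a single count in bRG 3 and a call that was lost without aRG 4.

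All 10 spindle and microtubule genes fell in bRG, with log2 fold changes from -3.45 for TROAP to -1.78 for CKAP2. The calls of TPX2, CKAP2 and NUSAP1 were lost without aRG 4. That of TPX2 was also lost without aRG 1, bRG 1, bRG 2 or bRG 4, and in the fit to aRG and bRG alone. TACC3, which binds microtubules at the spindle, was at 624, 499, 342 and 604 CPM in aRG and 126, 115, 34.3 and 42.1 in bRG. GTSE1, a microtubule-tip protein, was at 228 to 456 CPM in aRG and 38.2 to 70.7 in bRG. TROAP, a spindle-associated protein, was at 543, 541, 471 and 1001 CPM in aRG and 77.8, 74.4, 10.5 and 71.4 in bRG. No bRG library overlapped aRG for any of the 10 genes, and TROAP then fell to 1.64, 1.38 and 4.85 CPM in bIP. Retention in bIP was lowest for TROAP among all members, at 0.411% of its aRG mean. NUSAP1 is the member with the fewest counts, at 4.16 to 6.13 CPM in aRG and 0.118 to 1.22 in bRG, and its call (log2 fold change -3.10, adjusted p = 0.0453) was lost without bRG 3 (adjusted p = 0.0548) and on the gorGor6 table (adjusted p = 0.196), among other settings.

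The 4 genes of anaphase and mitotic exit all fell at both the first and the second step. CDC20, the mitotic activator of the anaphase-promoting complex, was at 79.6 to 315 CPM in aRG, 26.1 to 52.5 in bRG, and 4.18, 6.89 and 3.42 in bIP. UBE2C, the ubiquitin-conjugating enzyme of that complex, was at 127 to 414 CPM in aRG, 32.8 to 52.4 in bRG and 5.84 to 10.6 in bIP. The substrate securin, PTTG1, was at 97.1 to 292 CPM in aRG, 28.2 to 50.7 in bRG and 5.48 to 7.32 in bIP. For these 3 genes the ranges of aRG, bRG and bIP were separate, with first-step log2 fold changes between -2.37 and -2.10. Separase, ESPL1, which cuts cohesin once securin is gone, was at 197, 161, 148 and 274 CPM in aRG and 37.6, 41.2, 8.25 and 25.4 in bRG. It fell by 2.80 (SE 0.42, adjusted p = 0.00122). On the gorGor6 table ESPL1 held 13.7% of its hg38 counts, and this call was lost there (adjusted p = 0.602). That table is the larger one, with 12574865 counts in aRG 1 against 5884697 on hg38. All other members except TACC3 held more counts there than on hg38. PTTG1 has a close copy, PTTG2, with 183 counts in all against 7181 for PTTG1, and reads of the pair may be shared.

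All 8 cytokinesis genes fell in bRG, though PRC1 and ANLN were not called without aRG 4. The PRC1 call was also lost without aRG 2, aRG 3, bRG 1, bRG 2 or bRG 4. ANLN, anillin, the scaffold of the contractile ring, was at 201, 115, 111 and 221 CPM in aRG and 25.5, 22.4, 79.7 and 33.3 in bRG. ECT2, the exchange factor that activates RhoA at the furrow, was at 138 to 277 CPM in aRG and 29.9 to 56.1 in bRG. CIT, citron kinase of the midbody, was at 244, 190, 177 and 242 CPM in aRG and 53.1, 53.1, 24.0 and 45.0 in bRG. In all 3 genes the groups were separate, though for ANLN the bRG 3 value was the nearest to aRG, and its log2 fold change was -2.01 with that library and -2.58 without it. The ANLN call was lost without aRG 4 (adjusted p = 0.0523) and without bRG 4 (adjusted p = 0.0541). CIT fell by 2.28 (SE 0.26, adjusted p = 9.88e-05), and from bRG to bIP by a further 0.64 that did not pass (adjusted p = 0.125) except without bRG 3 (log2 fold change -0.84, adjusted p = 0.00842).

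CEP55, which recruits the abscission machinery to the midbody, was at 122, 60.7, 59.9 and 89.6 CPM in aRG and 12.3, 10.9, 0.472 and 9.04 in bRG. Its log2 fold change of -3.35 (SE 0.59, adjusted p = 0.00379) was -2.95 without bRG 3. CEP55 minus CIT was -1.41 ± 0.29 in aRG and -2.93 ± 1.45 in bRG, a shift of -1.53 (exact permutation p = 0.0286, adjusted 0.0857) that shrank to -0.80 without bRG 3. CEP55 and CIT retained 1.13% and 13.2% of their aRG means in bIP.

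Of the 3 transcription factors, FOXM1 and MXD3 fell and MYBL2 did not pass. FOXM1, the activator of late cell-cycle genes, was at 86.7, 79.4, 48.7 and 90.4 CPM in aRG and 19.8, 25.2, 29.8 and 18.9 in bRG, a log2 fold change of -1.70 (SE 0.28, adjusted p = 0.00232). MYBL2, B-Myb, its partner on these promoters, was at 110, 122, 104 and 119 CPM in aRG and 60.8, 45.6, 10.6 and 37.3 in bRG. The MYBL2 groups did not overlap, yet the log2 fold change of -1.56 did not pass (adjusted p = 0.0794). Without bRG 3 it was -1.25 and passed (adjusted p = 0.047). MXD3, a MYC-network repressor, was at 138 to 233 CPM in aRG and 24.9, 33.6, 4.01 and 25.1 in bRG, and fell by 3.15 (adjusted p = 0.000734). FOXM1 minus MYBL2 shifted by 0.12 in bRG (exact permutation p = 0.943, adjusted 0.943), and by -0.53 without bRG 3.

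The remaining members all fell in bRG. DEPDC1, a proliferation-linked gene, showed the largest fall of the set, from 58.2, 48.5, 99.9 and 171 CPM in aRG to 10.4, 6.23, 4.60 and 9.52 in bRG (log2 fold change -3.62, SE 0.48, adjusted p = 0.000369). The kinase MELK was at 49.4 to 102 CPM in aRG and 10.0 to 14.7 in bRG, and the mitotic kinase PBK at 69.2 to 223 and 9.40 to 22.8. PIF1, a DNA helicase, was at 881, 550, 558 and 558 CPM in aRG and 98.6, 78.8, 0.472 and 43.3 in bRG. The bRG 3 library held 4 PIF1 counts where the other bRG libraries held 455 to 708. The log2 fold change of PIF1 was -3.53 with bRG 3 (adjusted p = 0.0144) and -3.12 without it (adjusted p = 0.000118). Without bRG 4 the call was lost (adjusted p = 0.0706).

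**Figure D3:**
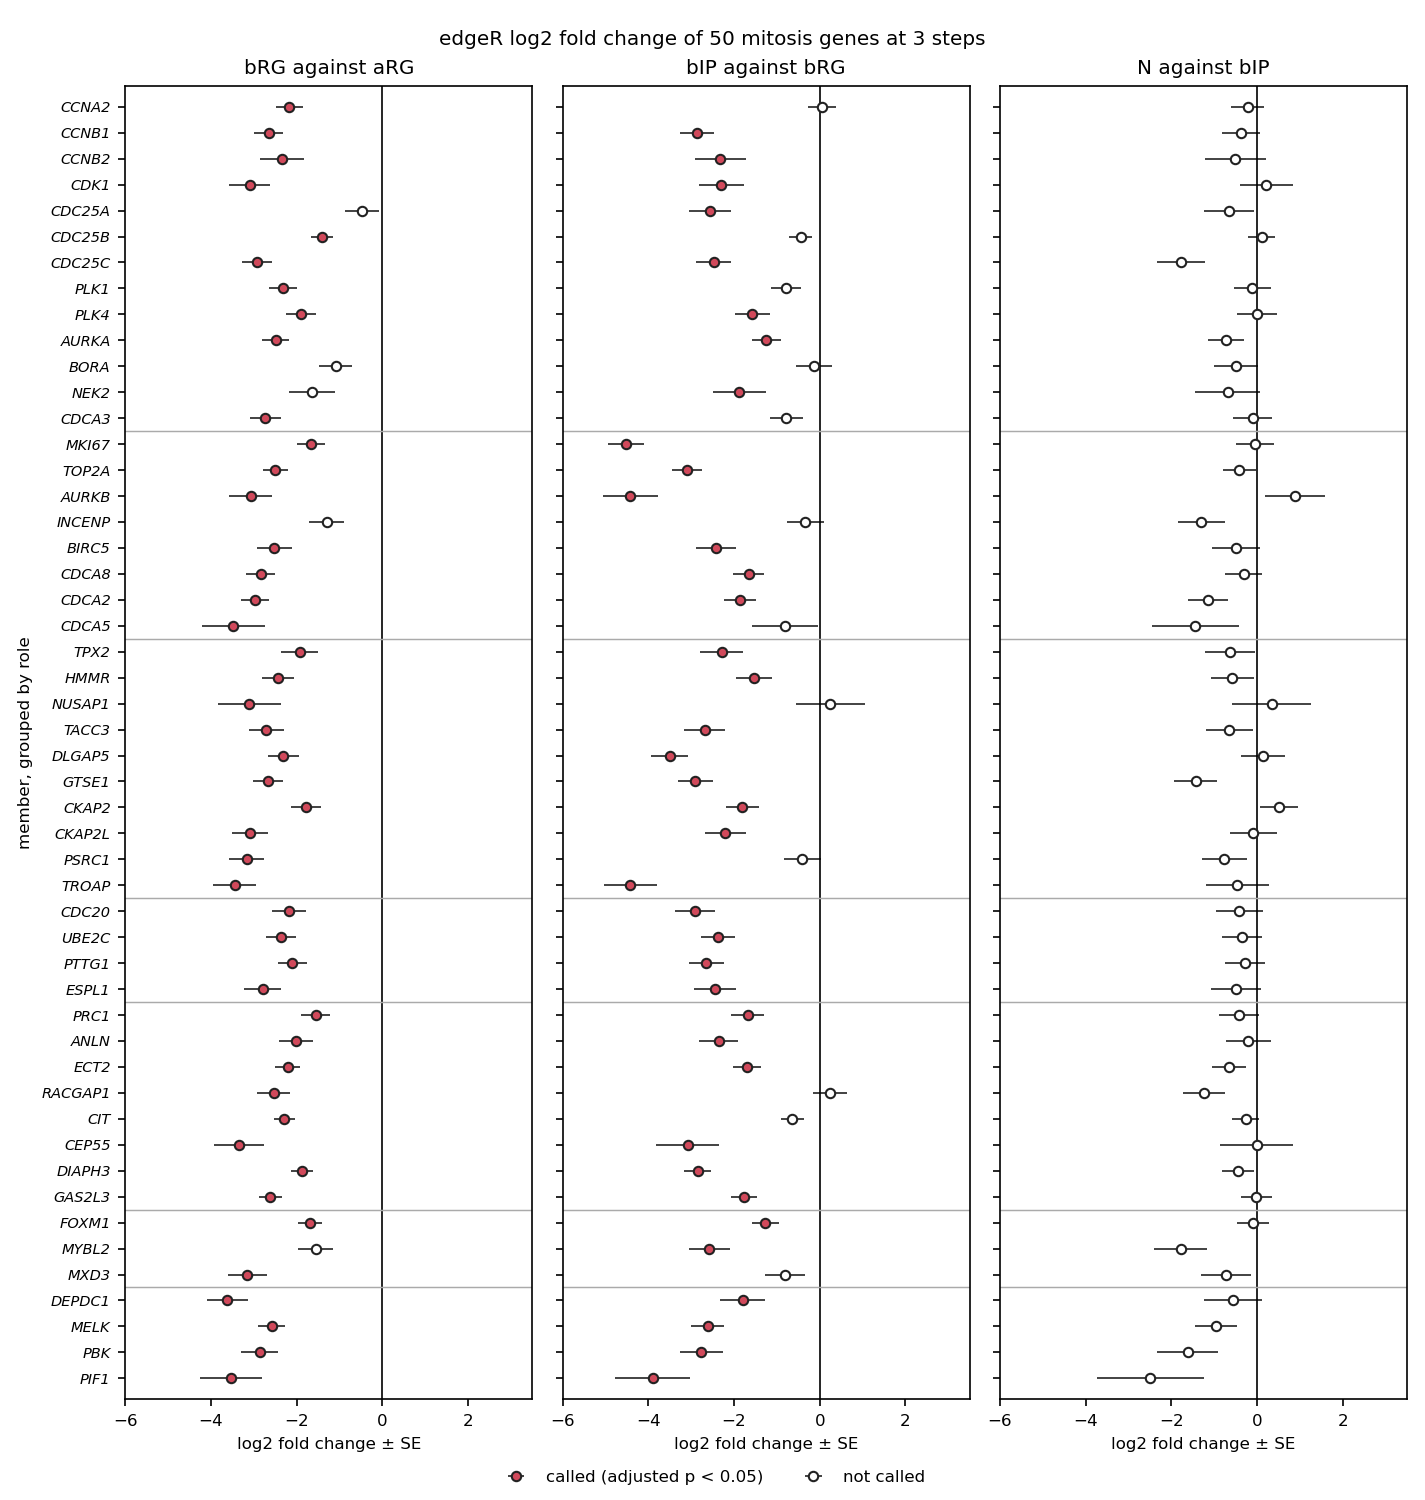
edgeR log2 fold change with its standard error for the 50 members (rows, grouped by role) in bRG against aRG, bIP against bRG and N against bIP, filled where the adjusted p was under 0.05. Filled points number 45, 38 and 0 in the 3 panels.

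From bRG to bIP, 38 of the 50 members fell again and none rose, where 8.44% of all genes were called lower. The median log2 fold change was -2.25 over the members and -0.09 over all genes. The 12 members that did not pass were CCNA2, CDC25B, PLK1, BORA, CDCA3, INCENP, CDCA5, NUSAP1, PSRC1, RACGAP1, CIT and MXD3. Of the roles, the anaphase and mitotic exit genes and the proliferation-linked genes passed in full. Without bRG 3, 40 members were called, with CDCA3, CIT and MXD3 gained and NEK2 lost. Over all fits without 1 library the count ran from 33 (without bIP 1) to 40, and the calls lost in at least 1 of them were those of AURKA, CCNB2, DEPDC1, FOXM1, HMMR, NEK2 and PLK4. Against aRG directly, 49 of 50 members were lower in bIP (median -4.44), all but BORA, where 9.98% of all genes were called lower. Without aRG 4 the bIP call of INCENP was lost (adjusted p = 0.069).

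Between bIP and the neurons edgeR called none of the 50 members, where it called 0.113% of all genes lower. Of the members, 7 had an unadjusted p under 0.05. DESeq2 also called no member, where it called 169 of 16804 genes in either direction. The point estimate was lower in N for 44 members and higher for 6, with a median log2 fold change of -0.45 over the members and 0.07 over all genes. The summed level was 446 to 518 CPM in bIP and 384 to 396 in N, without overlap. The 2 neuron libraries lay below all 3 bIP libraries for 13 members, a separation found in 13.8% of all genes, and above them for none. CDC25C was at 2.54, 3.29 and 4.85 CPM in bIP and 0.735 and 1.31 in N (log2 fold change -1.78, adjusted p = 0.406). MYBL2 was at 3.14, 8.80 and 7.19 CPM in bIP and 2.57 and 1.21 in N (log2 fold change -1.79, adjusted p = 0.517). Without bRG 3, PIF1 alone was called (log2 fold change -2.49, adjusted p = 0.0362), at 3.14 to 4.31 CPM in bIP and 0.858 and 0.466 in N.

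The neurons were lower than bRG for 39 members (median -2.56, with 9.13% of all genes called lower) and lower than aRG for 49 (median -5.07, with 9.37%), NUSAP1 being the exception against aRG. Without bRG 3, NUSAP1 passed against aRG (adjusted p = 0.024). Against bRG, leaving out that library gave 43 calls, with CDCA3, CDCA5, CIT, MXD3, PSRC1 and RACGAP1 gained and CKAP2 and INCENP lost. Without aRG 4, CIT was gained against bRG (log2 fold change -0.98, adjusted p = 0.0479). In N, the retained share of the aRG mean ran from 0.104% for PIF1 to 30.3% for BORA, with a median of 2.99%. The corresponding median in bIP was 4.61%.

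The place of bRG between aRG and bIP was tested gene by gene against the midpoint of their log2 levels, a comparison added after the data were seen. It shares the aRG and bIP libraries with the steps above. Of the 50 members, 20 lay above the midpoint and 30 below, with a median of -0.15 against 0.06 for all genes. A single member, MKI67, was called above it, where 2.55% of all genes were, and 4 were called below it, where 2.40% of all genes were. MKI67 in bRG lay 1.42 log2 units nearer to aRG than the midpoint (SE 0.28, adjusted p = 0.00657), and it passed under every alternative run.

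The 4 members below the midpoint were RACGAP1 (-1.39), CCNA2 (-1.11), PSRC1 (-1.38) and CIT (-0.82), with adjusted p of 0.0246, 0.0246, 0.0356 and 0.0425. RACGAP1, the GTPase-activating partner of ECT2, was at 42.6 to 106 CPM in aRG, 4.72 to 14.6 in bRG and 10.5 to 16.4 in bIP, so bRG and bIP overlapped. PSRC1, a spindle protein, was at 88.7 to 268 CPM in aRG, 5.30 to 24.1 in bRG and 11.7 to 13.3 in bIP. RACGAP1 and PSRC1 are described after their values were seen. These 4 calls each failed in some alternatives. Without aRG 4, CIT, PSRC1 and RACGAP1 did not pass, without bRG 3 CIT did not (adjusted p = 0.0593), and without bRG 4 only MKI67 remained.

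**Figure D4:**
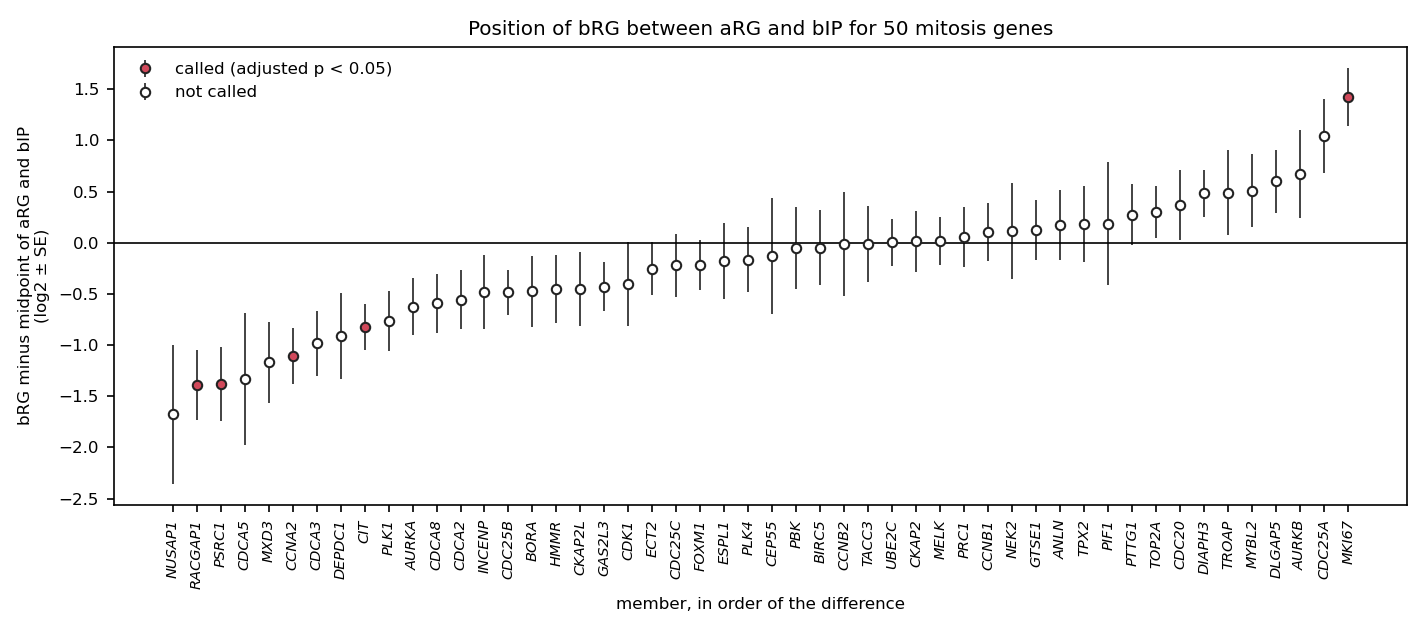
bRG minus the midpoint of aRG and bIP in log2 units, with standard errors, for the 50 members in order, filled where the adjusted p was under 0.05. MKI67 is the filled point above 0, at 1.42, and RACGAP1, PSRC1, CCNA2 and CIT are the filled points below it.

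The bRG 3 library differed from the other bRG libraries in both directions. It was the lowest bRG library for 25 members and the highest for 17. It lay more than 2-fold below the mean of the others for 18 members, among them PIF1, CDCA5, CEP55, AURKB and TROAP. It lay more than 2-fold above for 3, INCENP, TPX2 and ANLN. TPX2, the spindle-assembly activator of AURKA, was at 102 CPM there and at 33.0, 23.1 and 56.8 CPM in bRG 1, 2 and 4. The summed level of bRG 3, 1987 CPM, was still within the range of the other bRG libraries. Before TMM scaling, the members took 0.160% of its counts, against 0.212% to 0.238% in the other bRG libraries. Their mean log2 CPM was also lowest there, at 4.14 against 4.74 to 4.77.

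**Figure D5:**
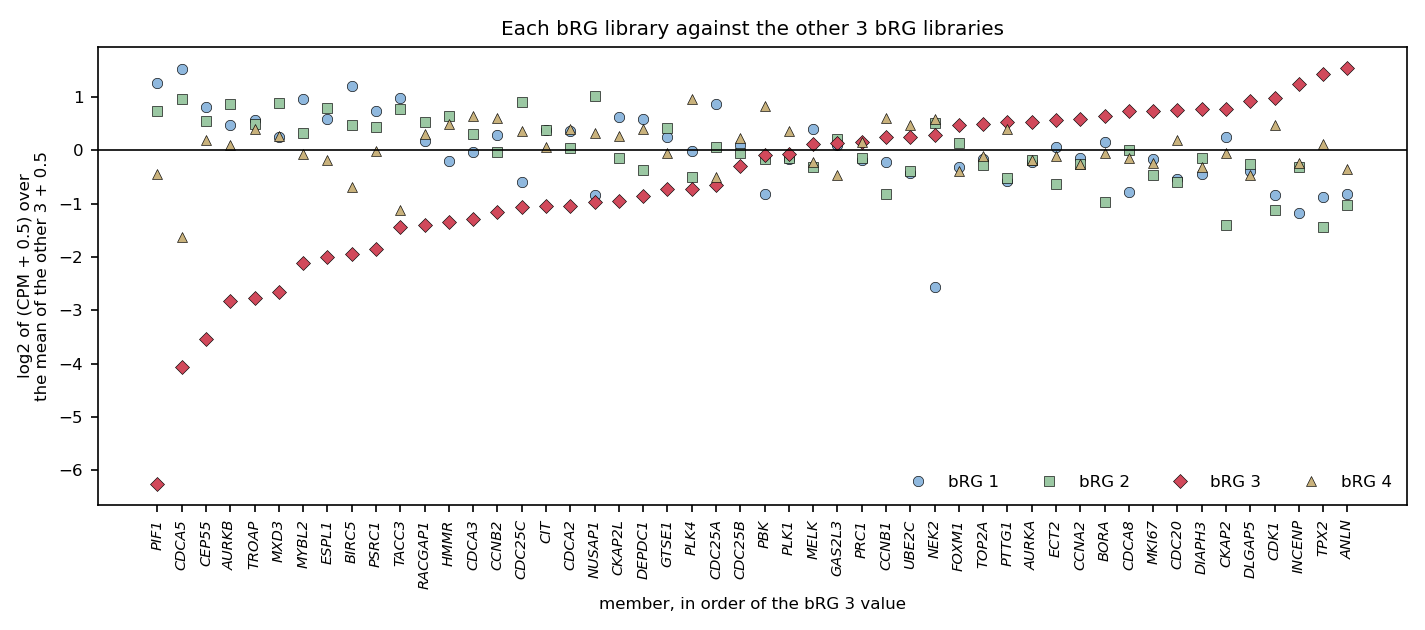
Each bRG library against the mean of the other 3, as the log2 ratio of CPM + 0.5, for the 50 members in the order of bRG 3. The bRG 3 points run from -6.25 at PIF1 to 1.54 at ANLN, while those of the other bRG libraries stay between -2.56 and 1.52.

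Other genes of the same machinery were read from lists described by their counts and medians. All 12 mitotic kinesins measured, the motors of the spindle and midzone, fell in bRG (median -2.74), and 10 of 12 fell again in bIP. KIF20A was at 167 to 411 CPM in aRG, 29.4 to 51.6 in bRG and 1.49 to 7.10 in bIP. Of 17 subunits, regulators and inhibitors of the anaphase-promoting complex, FBXO5, an inhibitor that itself cycles, was the one that fell in bRG (log2 fold change -2.14, list median -0.09). Of 8 genes around the CDK1 switch, PKMYT1, an inhibitory kinase of CDK1, and MASTL, which shuts off the opposing phosphatase, fell by 2.61 and 2.00 (list median -0.43).

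Of 10 DREAM and MuvB genes, the repressor complex of these promoters in resting cells, edgeR called 0 in bRG (median -0.18, 2 at an unadjusted p under 0.05, 0 with DESeq2). Of 15 septin, RhoA and ESCRT genes it called 0 (median -0.03, 2 unadjusted, 0 with DESeq2). Of 8 cyclin-dependent kinase inhibitors it called 0 (median 0.05, 3 unadjusted, 2 with DESeq2). Of 24 DNA replication genes, edgeR called 4 (CDC45, CDC6, FEN1, RRM2) lower in bRG, with a list median of -0.74. In either direction, 14 of the 24 had an unadjusted p under 0.05 and DESeq2 called 6. From bRG to bIP, 18 of the 24 replication genes fell (median -1.74), among them MCM3, CDC45 and CLSPN. In that step WEE1, which inhibits CDK1, fell by 2.75. Of the 8 genes around the CDK1 switch, 1 was called lower and 1 higher there (median -0.24). CDKN2D, a CDK4 and CDK6 inhibitor, rose by 3.21. Of the 8 cyclin-dependent kinase inhibitors, 2 were called lower and 1 higher at that step (median -0.89). From bIP to N edgeR called 0 genes of these 7 lists, with at most 4 in a list at an unadjusted p under 0.05, in the kinesins. There DESeq2 called 1 kinesin and 1 kinase inhibitor.

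Markers of other cell types moved with the populations. Choroid plexus and hem markers summed to 1638 to 7930 CPM in aRG and 261 to 1362 in bRG, with none of the 9 at 0. TTR, a choroid plexus transport protein, was called lower in bRG (log2 fold change -2.85) and the other 8 were not, while 4 of the 9 had an unadjusted p under 0.05 and DESeq2 called 2. By mean CPM, TTR was the largest part of these sums, at 4512 in aRG and 628 in bRG. RSPO2, RSPO3 and LMX1A had higher means in bRG than in aRG. Mesenchyme markers summed to 112 to 334 CPM in aRG and 74.7 to 99.5 in bRG, with 1 of 8, COL1A1, called lower by edgeR. In either direction, DESeq2 called 3 of the 8, and 3 had an unadjusted p under 0.05. COL1A1 had the highest mean of these markers, at 107 CPM in aRG and 22.0 in bRG. PDGFRA, FOXC1 and TWIST1 had higher means in bRG than in aRG. Intermediate progenitor markers summed to 399 to 657 CPM in aRG and 831 to 1104 in bRG, with 0 of 9 called by edgeR or DESeq2 and 3 at an unadjusted p under 0.05. The same list summed to 364 to 598 CPM in bIP and 456 to 542 in N. From bRG to bIP, edgeR called 5 of the 9 lower and 1 higher. At the second step all 10 radial glia markers fell, all 10 neuron markers rose and 6 of 7 Cajal-Retzius markers rose. The part of these cells in the fall of the mitotic genes was not tested.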

How the data were processed

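RNA was measured in 13 sorted libraries. The authors deposited raw read counts per gene symbol, not normalized, in 2 tables, 1 on hg38 (18137 genes, the main one) and 1 whose name gives gorGor6. STAR and hg38 are named, with no role or version, per the submitters' processing notes. Neither counter, annotation nor strand setting is given in these sources, so reads of overlapping genes or copies may be split. One nameless gorGor6 row, between 0.0035% and 0.0077% of a library's counts, was dropped. One neuron column carries a number no neuron label has, and served as an unnumbered neuron library. TACC3 is listed at 0 in the gorGor6 table, which leaves 49 members tested there.

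Tests used edgeR 4.0.16 in R 4.3.3 (quasi-likelihood F-test, TMM scaling, filterByExpr with a minimum count of 10), with all 13 libraries in 1 fit and Benjamini-Hochberg adjustment over 16804 genes. A call is an adjusted p under 0.05, and a standard error is the fold change over the root of F. Pairs of members were compared by two-sided exact permutation, on log2 CPM (prior count 2). Alternatives were DESeq2 1.42.0, its size factors, no filter, the gorGor6 table, a replicate block, fits to the compared populations, and leaving out each library. The procedure was tested on simulated data.

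The members, their roles, the lists and the 6 pairs were chosen with earlier results of these data known. Named genes were members picked by role under a rule, plus those called against the midpoint, a contrast added after the data were seen. Counts of replicate libraries differed by more than sampling noise (chi-square per degree of freedom of 11.1 to 98.0), so none was counted as a duplicate. Promoter sequences were not used here, and no motif search was run. Precision is limited by 2 to 4 libraries per population. Lacking molecular identifiers, reads are not independent molecules.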

Additional observations from a re-analysis of the deposited data

Results flagged for a closer look

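Within groups of 4 libraries, a single library lay far from the other 3, by Dixon's criterion at the 95% level, in 11 of 102 groups tested, and chance alone gives about 1 in 20. In aRG 4 the high values were CCNB2 at 246 CPM, TROAP at 1001 CPM, UBE2C at 414 CPM and PBK at 223 CPM. PIF1 was high in aRG 1, at 881 CPM. In bRG 3, CCNA2 at 57.5 CPM, AURKA at 26.6 CPM and DLGAP5 at 51.6 CPM were high, and TROAP at 10.5 CPM was low. NEK2 was low in bRG 1, at 2.91 CPM, and GAS2L3 was low in bRG 4, at 21.0 CPM. Of the 11, 4 fell in bRG 3 and 4 in aRG 4.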

How the results depend on the processing

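The count of members called in bRG against aRG was 42 to 46 under the alternatives that kept all aRG and bRG libraries by design. Among these, the replicate block dropped the unnumbered neuron library, and the fit to the compared populations dropped bIP and N. The count was 37 to 45 when each library was left out in turn, and no member's fold change turned positive. The calls lost under some setting were those of CCNB2, MKI67, CDCA5, TPX2, NUSAP1, CKAP2, ESPL1, PRC1, ANLN and PIF1, and those gained were INCENP and MYBL2. For bIP against bRG the median of -2.25 became -1.93 with the replicate block and ran from -2.245 to -1.978 over the fits without 1 library. For N against bIP the count ran from 0 to 1 and the median from -0.52 to -0.35. The median of N against aRG ran from -5.225 to -4.607, and the count of N against bRG from 28 (without N 1) to 43 (without bRG 3). Against the midpoint, 8 members were called with DESeq2, 8 with the replicate block, and 1 to 5 without 1 library, lowest without bRG 4. Calls over all genes changed as well. They numbered 832 of 16804 in the main fit, 1568 of 16804 with DESeq2 and 1214 of 17200 with the block. Without 1 library they ran from 531 of 16719 (without bRG 4) to 1128 of 16635 (without bRG 2). FOXM1 minus MYBL2 ran from -0.529 to 0.495, turning negative without bRG 3 (-0.529) and without aRG 3 (-0.04). The cause was not tested. Replicate numbers were not taken as pairs in the main fit. Deviations of same-numbered aRG and bRG libraries from their population means correlated at 0.112, 0.387, -0.0127 and 0.136 over all genes. Over the members these correlations were 0.381, 0.385, 0.00681 and 0.219. Of 12 numbered libraries, 6 correlated best with their own number. These values do not decide whether the numbers mark pairs. With the block, 46 members were called in bRG against aRG. Low counts limit NUSAP1 in all libraries, and CDCA5, CEP55 and PIF1 in bRG 3, where they held 1, 4 and 4 counts.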
